A study of Lytechinus variegatus with 64 samples.

Results

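In adult wild-type sea urchins (Lytechinus variegatus), 4 libraries of interambulacral plates, which are calcified body wall, were compared with 3 libraries of the peristomial membrane, which is soft body wall. These 7 libraries, picked by their tissue labels, were among 64 in the whole series. The adults came from a commercial supplier, their tissues went into Trizol, and the libraries were polyA libraries prepared and sequenced in pairs of reads by Novogene. No treatment, sex, age in months or animal of origin was stated for any of them. A green, a mixed color, a red and a white spine sample, each with 1 library, had the same genotype, source and preparation. They served as a further calcified tissue that took no part in choosing the changed genes.

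The body wall of a regular sea urchin is a rigid test of calcite plates covered by living tissue. Its plates are set in columns, of which the ambulacral ones carry the openings for the tube feet and the interambulacral ones lie between them, and movable calcite spines sit on tubercles of these plates. The peristomial membrane is the flexible skin that closes the oral opening of the test around the mouth. Each plate and each spine grows by mineral deposition from skeletogenic cells, which secrete matrix proteins and take up calcium and bicarbonate.

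Genes are given here by locus identifier, because neither the count table nor the RefSeq table of assembly Lvar_3.0 pairs these identifiers with product names. No role is therefore stated for any gene, and the lists drawn up by product name (biomineralization, matrix, muscle, nerve, cilia, pigment, immunity and others) matched 0 genes. For the same reason the tissue labels could not be checked against known marker genes. Whether a gene shares reads with a near-identical copy could not be examined either, so each value below carries that uncertainty. None of the 13 genes named by rule overlaps another annotated gene.

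Totals ran from 23398585 to 32268962 counts in the plates, from 23591603 to 31081029 in the membrane and from 17506035 to 23175242 in the spines. Across genes, log2 levels correlated at 0.880 to 0.963 among the plate libraries, at 0.904 to 0.938 among the membrane libraries and at 0.823 to 0.893 between them (Pearson's r, a description only). Plate replicate 4 stood apart from the other plates, with r of 0.880 to 0.897, and membrane replicate 2 had a scaling factor of 0.738 where the other 6 libraries had 0.990 to 1.16. The first principal component held 40.7% of the variance and separated plates from membrane, while the second (20.9%) placed plate replicate 4 and membrane replicate 2 on the same side, away from the rest.

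Of 19376 genes tested, 255 were higher in plates and 239 were higher in the membrane, which is 1.32% and 1.23% of the tested genes. A gene was called at an adjusted p under 0.05 (edgeR's quasi-likelihood test, Benjamini-Hochberg adjustment) and a fold of at least 2. The plate and membrane libraries did not overlap for any called gene. Without overlap alone, plates lay above in 10.9% of all tested genes and the membrane in 12.2%. The lowest adjusted p was 0.00153, and 4738 genes had an unadjusted p under 0.05. A further 963 genes changed by at least 2-fold with an adjusted p between 0.05 and 0.10, while 30 passed the adjusted p with a smaller fold. The labels do not say whether replicates are separate animals, so the p-values reflect library-to-library spread, part of which may be technical.

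The number of calls depended on single libraries. Genes called higher in plates numbered 60, 18, 99 and 384 without plate replicates 1, 2, 3 and 4, and 15, 65 and 213 without membrane replicates 1, 2 and 3. Genes called higher in the membrane numbered 87, 33, 115 and 339 without those plate replicates, and 39, 97 and 137 without those membrane replicates. Of the 255 and 239 genes, 12 and 26 were called in all 7 of these fits. With both plate replicate 4 and membrane replicate 2 left out, 139 and 189 genes were called.

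The changes were wide in size. The median absolute log2 fold change was 1.84 among genes higher in plates and 2.01 among genes higher in the membrane, against 0.51 over all tested genes. The fold change reached 5 or more on the log2 scale, in either direction, for 36 and 43 genes. In the lower tissue the mean level was under 1 CPM (counts scaled to library size over all 64 libraries) for 49 genes higher in plates and 65 higher in the membrane. All libraries of the lower tissue held 0 counts for 7 and 5 genes. In the higher tissue, 47 and 65 genes reached 100 CPM. Since tissue was sequenced in bulk, fewer cells of a type and less RNA per cell cannot be told apart in any of these differences.

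**Figure D1:**
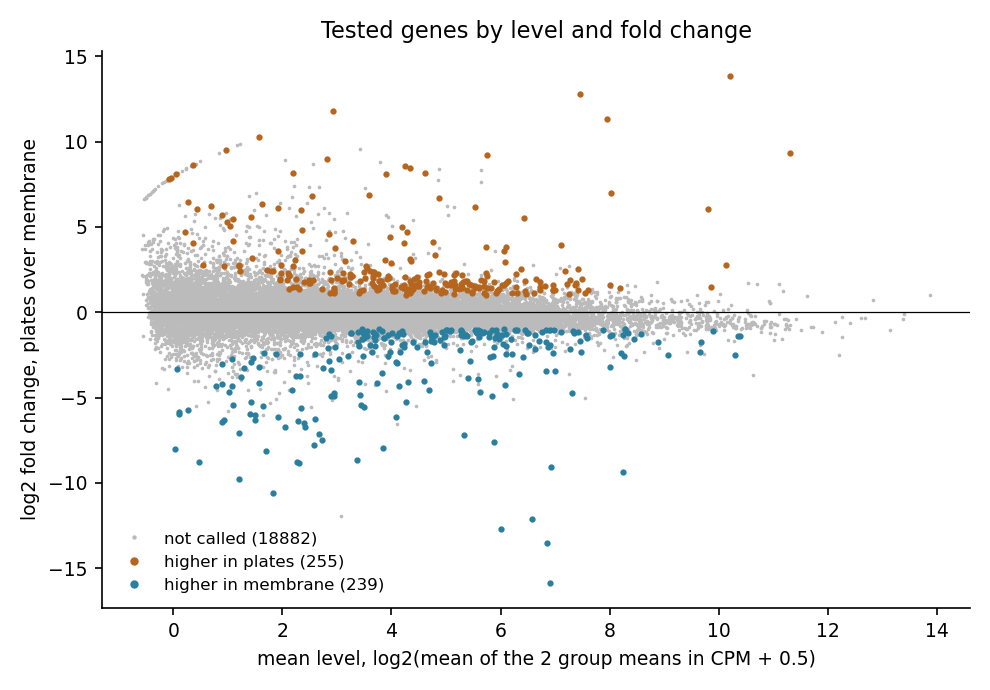
Each point is a gene tested between plates and membrane; the horizontal axis gives its mean level as log2(CPM + 0.5) and the vertical axis its log2 fold change, plates over membrane. The 255 genes called higher in plates (brown) and the 239 called higher in the membrane (blue) are spread over the range of levels, and the median of all genes lies at -0.01.

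As a share of all counts, the 255 genes took 2.66%, 3.72%, 4.12% and 3.39% in the plate libraries and 0.539%, 0.397% and 0.643% in the membrane libraries. The 239 genes took 1.16%, 1.02%, 1.13% and 1.13% in the plates and 3.54%, 2.96% and 3.22% in the membrane. These shares follow from how the genes were chosen and are given as a description. Protein-coding genes made up 98.4% and 95.8% of the called genes (93.0% of those tested), and long noncoding RNAs 1.57% and 3.35% (5.22%). The median span of a gene in the annotation was 30.1 kb for those higher in plates and 12.1 kb for those higher in the membrane, against 16.04 kb over all tested genes.

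Among the genes higher in plates, LOC121419866 had the largest fold change of those that could be named by rule. It was at 532, 1176, 4796 and 2990 CPM in plate replicates 1 to 4 and at 0, 0 and 0.422 CPM in the membrane, where replicate 3 held all 15 counts. The plates spanned a wide range among themselves and lay far above every membrane library. The log2 fold change was 13.84 ± 1.57 (SE, n = 4 and 3, edgeR adjusted p = 0.00976), and the ratio of means was 16859 (95% Poisson interval on the membrane counts 10221 to 30121, counting error only). Without plate replicate 3 the ratio was 11124, and without membrane replicate 3 the membrane held 0 counts. This gene was at 4266, 3306 and 1079 CPM in the green, mixed and red spines and at 26.9 CPM in the white spine. Among the 12 other adult types with replicates, its highest mean was 7.84 ± 8.14 CPM (SD, n = 4), in lantern muscle, and the single coelomic fluid library had 21.5 CPM.

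LOC121408446 was lower in every spine than in any plate library, and only the mixed spine lay clearly above the membrane. Its plate values were 261, 526, 78.3 and 533 CPM, and the membrane held 4 counts in all, all in replicate 1 (0.141 CPM). The log2 fold change was 12.76 ± 1.25 (SE, edgeR adjusted p = 0.00525), with a ratio of 7461 (95% Poisson interval 2914 to 27382). Without membrane replicate 1 no count was left in the membrane. The mixed spine had 32.8 CPM, while the green, red and white spines had 0.0778, 0.236 and 0.0814 CPM. Its highest mean among the other types was 2.92 ± 2.43 CPM (SD, n = 4), in testis. Its calls held in all 7 fits that left out a library.

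LOC121424524 took more counts in the plates than LOC121419866. It was at 1765, 4116, 7099 and 7210 CPM in the plates and at 1.58, 21.3 and 1.69 CPM in the membrane, where replicate 2 stood above the other 2. The log2 fold change was 9.31 ± 1.37 (SE, edgeR adjusted p = 0.0226). The ratio of means was 617, and 3085 without membrane replicate 2. The call was lost without plate replicate 2 or membrane replicate 1 (adjusted p = 0.0642 and 0.0777). The spines had 4342, 5184, 2704 and 125 CPM in the order green, mixed, red and white, and none of the 12 other replicated types had a mean above 3.19 CPM. The coelomic fluid library had 29.7 CPM. LOC121419866, LOC121424524 and LOC121410689, described below with its neighbours, were the 3 called genes with the highest CPM in the plates, a ranking that is not corrected for gene length.

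Among the genes higher in the membrane, the largest fold changes by rule were those of LOC121426896, annotated as a long noncoding RNA, and LOC121425981, annotated as protein-coding. LOC121426896 was at 292, 86.5 and 334 CPM in the membrane and had 0 counts in all 4 plate libraries. Against 3 counts in the shallowest plate library, it was at least 2259-fold higher in the membrane (edgeR adjusted p = 0.00671). LOC121425981 was at 331, 73.0 and 284 CPM in the membrane, and the plates held 2 counts in all, in replicate 2. Its ratio was 14334 (95% Poisson interval 3968 to 118360, edgeR adjusted p = 0.00153). Membrane replicate 2 was the lowest of the 3 for both genes. In the spines, 0 counts of LOC121425981 were found, and LOC121426896 appeared in the mixed spine only, at 0.207 CPM.

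Both genes were at far higher levels at the mouth end of the gut tube than in the membrane. LOC121426896 averaged 13916 ± 8572 CPM in the mouth (SD, n = 3), 8406 CPM in the esophagus and 913 CPM in the axial gland. LOC121425981 averaged 14674 ± 6399 CPM in the mouth (SD, n = 3), 6198 CPM in the esophagus and 1002 CPM in the axial gland. Over the 12 other types the medians were 0.672 and 0.798 CPM.

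The 3 called genes with the highest CPM in the membrane were LOC121410681, LOC121417135 and LOC121422269, and each was also well expressed in the plates. LOC121417135 was at 773, 650, 784 and 750 CPM in the plates and at 1967, 1969 and 1932 CPM in the membrane. Values within each tissue were close together, and the log2 fold change was -1.38 ± 0.18 (SE, edgeR adjusted p = 0.0143). All 4 spines lay within the plate range, at 779, 755, 741 and 700 CPM. The call was lost without plate replicate 2 or membrane replicate 1 (adjusted p = 0.0761 and 0.0586). LOC121417135 reached 177 CPM or more in every other adult type.

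LOC121422269 was at 579, 605, 650 and 986 CPM in the plates and at 1720, 2638 and 1395 CPM in the membrane. The log2 fold change was -1.41 ± 0.30 (SE, edgeR adjusted p = 0.0470). This call was near its threshold: it held in only 1 of the 7 fits that left out a library, with adjusted p up to 0.142. The spines had 514, 725, 504 and 476 CPM, and the highest mean elsewhere was 4106 ± 1324 CPM (SD, n = 4), in the esophagus.

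**Figure D2:**
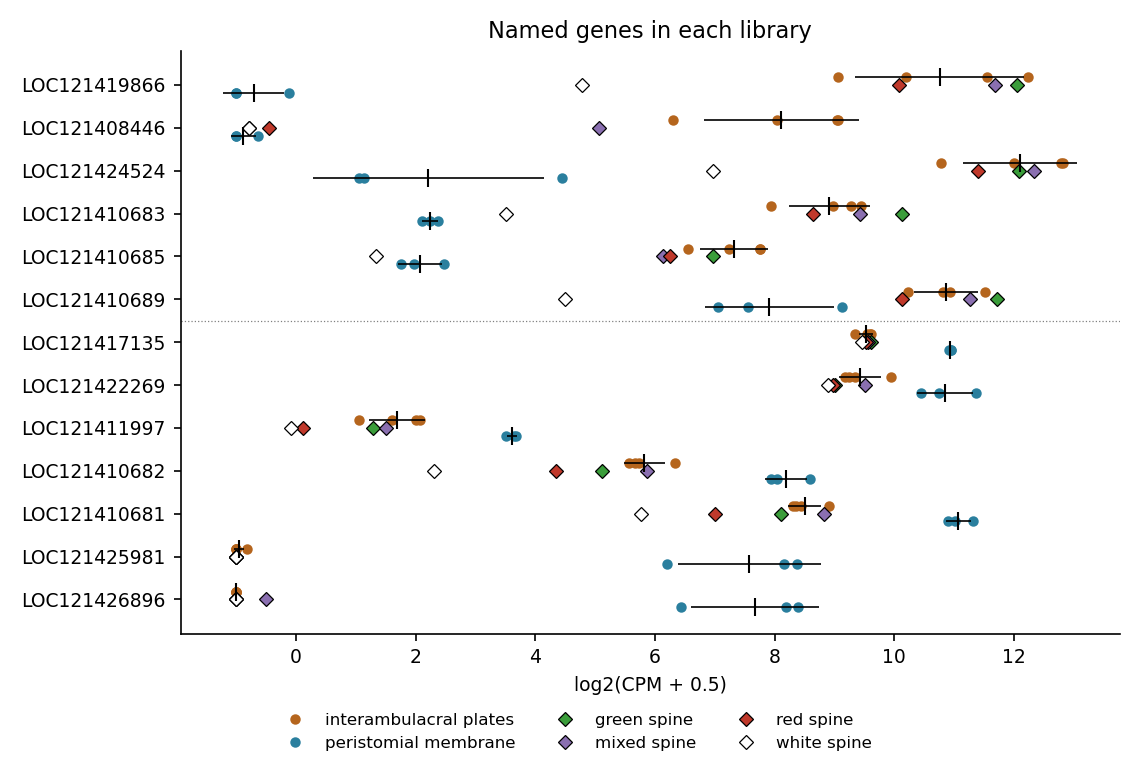
Levels of the 13 genes named by rule, as log2(CPM + 0.5), in each plate library (brown), membrane library (blue) and spine library (diamonds); black ticks and lines are the mean and SD of each tissue. The 6 genes above the dotted line were called higher in plates and the 7 below it higher in the membrane; for LOC121419866, LOC121424524, LOC121410683, LOC121410685 and LOC121410689 the white spine falls well below the other 3.

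Called genes lay next to each other in the annotation more often than tested genes at large, a description to which no test was applied. Of the 255 genes higher in plates, 21 (8.24%) were the immediate neighbour of another such gene, where 2.09% of all tested genes were. Of 238 placed genes higher in the membrane, 27 (11.3%) neighboured another, against 1.98%. Within 2 genes on either side the counts were 28 and 31 (10.98% and 13.03%, against 3.93% and 3.73%). Neighbours called in opposite directions were 4 pairs. Runs of adjacent genes in 1 direction were mostly pairs, 9 for plates and 12 for the membrane, with a single run of 3 genes in each direction.

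Both runs of 3 lay in one stretch of 9 genes that held 7 called genes, the longest such stretch when called genes at most 2 places apart were joined. The next longest stretches held 3 called genes. Apart from the runs themselves, this stretch was picked after its values were seen, and its genes are protein-coding. In annotation order, 4 genes higher in the membrane (LOC121410679, LOC121410681, LOC121411997 and LOC121410682) came first, with the uncalled LOC121410680 among them. After the uncalled LOC121410684 came 3 genes higher in plates (LOC121410683, LOC121410685 and LOC121410689).

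On the membrane side of the stretch, LOC121410681 carried the most counts. It was at 346, 328, 481 and 318 CPM in the plates and at 1897, 2533 and 2068 CPM in the membrane. The log2 fold change was -2.53 ± 0.23 (SE, edgeR adjusted p = 0.00525). LOC121410682 was at 50.3, 52.6, 80.2 and 47.0 CPM in the plates and at 246, 386 and 262 CPM in the membrane (log2 fold change -2.34 ± 0.27, adjusted p = 0.0101). Both calls held in all 7 fits that left out a library and were lost in the fit over all replicated groups (adjusted p = 0.13 and 0.179).

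LOC121410679, at the start of the stretch, averaged 23.4 ± 5.95 CPM in the plates and 146 ± 3.69 CPM in the membrane (SD), and its log2 fold change was -2.61 ± 0.25 (SE, adjusted p = 0.00526 in edgeR). LOC121411997 was low in both tissues, at 2.84 ± 0.98 and 11.7 ± 0.69 CPM (SD), and its log2 fold change was -2.02 ± 0.33 (SE, adjusted p = 0.0282 in edgeR). It was called in 2 of the 7 fits. LOC121410680 also had its lower mean in the plates, 363 ± 128 against 698 ± 141 CPM (SD), but was not called (log2 fold change -0.91, adjusted p = 0.11). Among the 12 other types, all 4 called genes had their highest mean in the radial canal, from 6.18 CPM for LOC121411997 to 1162 CPM for LOC121410681.

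On the plate side, LOC121410683 was at 245, 505, 698 and 620 CPM in the plates and at 4.22, 4.67 and 3.83 CPM in the membrane. Its log2 fold change was 6.96 ± 0.47 (SE), and its adjusted p was 0.00153 (edgeR), the lowest value reached. LOC121410685 was at 93.6, 215, 216 and 151 CPM in the plates and at 2.88, 3.43 and 5.07 CPM in the membrane (log2 fold change 5.51 ± 0.43, adjusted p = 0.003). Both were called in all 7 fits that left out a library. In the fit over all replicated groups LOC121410683 kept its call (adjusted p = 0.0438) and LOC121410685 lost it (0.217). Neither reached a mean of 12 CPM in any of the other 12 types.

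LOC121410689 was at 1193, 1797, 2940 and 1947 CPM in the plates and at 133, 561 and 187 CPM in the membrane. The log2 fold change was 2.78 ± 0.56 (SE, edgeR adjusted p = 0.0448). It was called in 2 of the 7 fits that left out a library (adjusted p up to 0.114), and its ratio of means rose from 6.71 to 12.3 without membrane replicate 2. Among the 12 other types its highest mean was in the tube foot, at 3775 ± 2666 CPM (SD, n = 4), followed by lantern muscle at 57.6 CPM, and the coelomic fluid library had 68.4 CPM. The tube foot was also the highest of these types for the uncalled LOC121410680, at 438 ± 304 CPM (SD).

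In the spines, the genes on the plate side of the stretch were high in the green, mixed and red samples and low in the white one. LOC121410683 had 1115, 689 and 398 CPM in the green, mixed and red spines and 10.9 CPM in the white. LOC121410685 had 124, 69.9 and 75.9 CPM against 2.04 CPM, and LOC121410689 had 3380, 2472 and 1121 CPM against 22.0 CPM. Genes of the membrane side were low in the white spine too. LOC121410681 had 275, 452 and 127 CPM in the coloured spines and 54.0 CPM in the white. All 9 genes of the stretch were lower in the white spine than in each coloured spine, with the lowest coloured spine 1.22 to 50.9 times the white. How many of all tested genes showed this was not counted. For 6 of the 9 the white spine was at least 4-fold below the coloured mean, against 3.93% of all tested genes, a share not matched for level. The uncalled LOC121410678, just before the stretch, was also lowest in the white spine, at 20.4 CPM against 102 to 285 CPM. With 1 library per spine type, differences between spines have no replicate check.

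**Figure D3:**
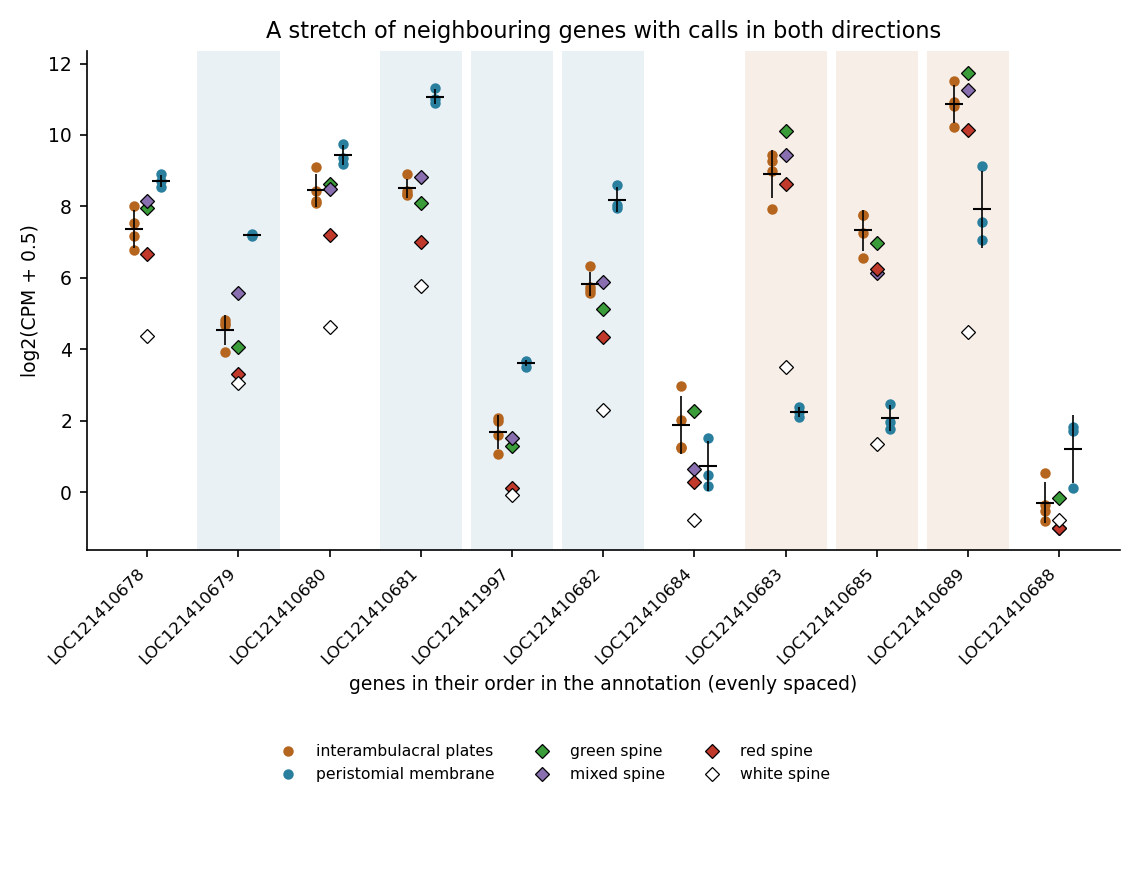
Levels, as log2(CPM + 0.5), of 11 neighbouring genes in annotation order (the stretch of 9 and 1 gene on each side, evenly spaced), in plate libraries (brown), membrane libraries (blue) and spines (diamonds); black ticks and lines are mean and SD, and shading marks genes called higher in the membrane (blue) or in plates (brown). The calls change direction once along the order, and the white spine is lowest of the spines in all 9 genes of the stretch and in the gene before it.

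The 4 spine libraries, which played no part in the calls, lay mostly on the plate side for the called genes. A spine was counted as nearer the plates when its log2(CPM + 0.5) was closer to the plate mean than to the membrane mean. Both means came from the libraries that also chose the genes, so the shares are a description only. Of the 255 genes higher in plates, the green spine was nearer the plates for 83.9%, the mixed spine for 81.6%, the red for 75.7% and the white for 63.9%. Of the 239 genes higher in the membrane, the shares were 85.8%, 81.6%, 87.0% and 89.5%. Over all tested genes they were 61.8%, 58.6%, 60.7% and 62.6%. By this measure, though not by those given below, the white spine stood near this background for genes higher in plates.

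**Figure D4:**
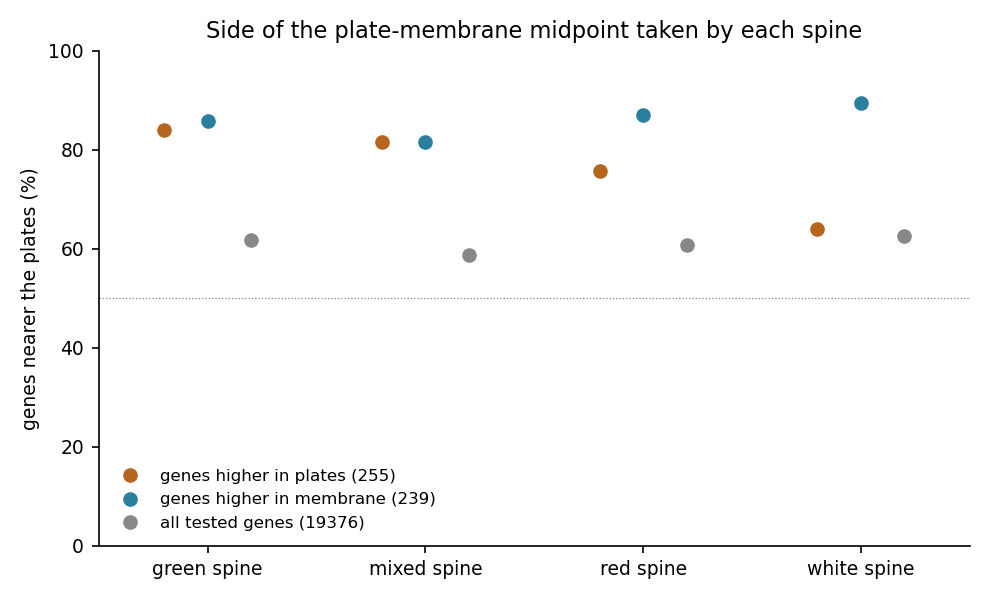
Percent of genes whose level in a spine lies nearer the plate mean than the membrane mean, for genes called higher in plates (brown), genes called higher in the membrane (blue) and all tested genes (grey); the dotted line is 50%, and each spine type is 1 library. Brown points fall from 83.9% in the green spine to 63.9% in the white spine, while blue points stay between 81.6% and 89.5%.

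Taken gene by gene, 138 of the 255 genes (54.1%) were nearer the plates in all 4 spines, and 42 (16.5%) in the green, mixed and red spines but not in the white. Of the 239, 172 (72.0%) were nearer the plates in all 4. In the green, mixed, red and white spines, 88.6%, 90.2%, 86.7% and 71.8% of the genes higher in plates exceeded every membrane library. Of all tested genes, 32.1%, 30.0%, 31.5% and 32.7% did. For genes higher in the membrane, 90.8%, 91.2%, 91.2% and 93.7% fell below every membrane library. Of all tested genes, 37.2%, 34.9%, 38.4% and 39.1% did. Called genes were chosen partly by their membrane levels, so these shares are a description. The white spine was at least 4-fold below the mean of the coloured spines for 43 of the 255 genes (16.9%) and 30 of the 239 (12.6%), against 3.93% of all tested genes. That background was not matched for level. The median CPM in the higher tissue was 29.6 and 38.5 for the called genes and 9.49 over all tested genes.

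A comparison that used neither plates nor membrane set the spines against the median of the 12 other types. Of the genes higher in plates, 70.2%, 62.4%, 68.6% and 65.5% lay above that median in the green, mixed, red and white spines, where 45.4% to 46.4% of all tested genes did. Of the genes higher in the membrane, 29.7%, 34.7%, 25.5% and 21.8% did.

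Some called genes stood well above the 12 other types in the tissue where they were called higher. In the plates, 17 of the 255 genes (6.67%) had a mean at least 4-fold above that of each of the 12 other types. The same margin was met by 14 of these 17 when the green spine was measured, by 16 for the mixed spine, 12 for the red and 5 for the white. In the membrane, 10 of the 239 genes (4.18%) met the margin, and the spines met it for 0, 1, 0 and 0 of them. At the other end, 140 of the 255 genes and 97 of the 239 averaged 1 CPM or more in every one of the 12 other types. The matching shares over all tested genes were not counted, so these numbers are a description only.

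Genes higher in plates and genes higher in the membrane had different best-expressing tissues among the 12 other types. The highest type was counted whatever its level. For LOC121419866 and LOC121424524 it was lantern muscle, at means of only 7.84 and 3.19 CPM. Lantern muscle was the highest type for 38 genes higher in plates (14.9%, against 4.26% of all tested genes), and the radial canal for 34 (13.3%, against 7.65%). The ovary was highest for 73 (28.6%), close to its share of all tested genes (25.3%). For genes higher in the membrane, the mouth was highest for 48 (20.1%, against 4.98%), the esophagus for 39 (16.3%, against 4.77%) and the radial nerve for 25 (10.5%, against 3.94%).

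**Figure D5:**
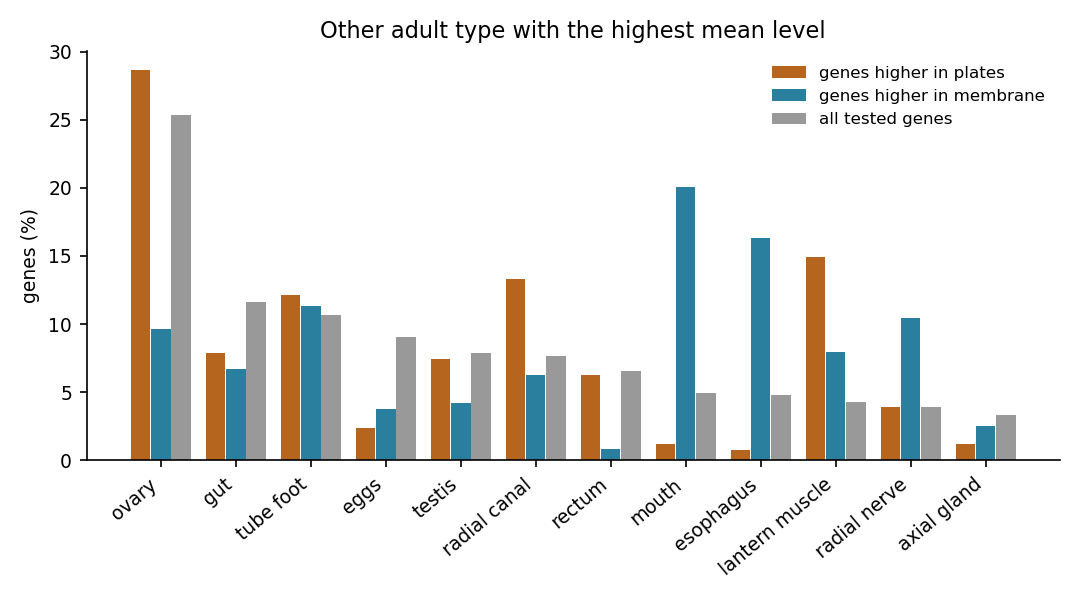
Percent of genes whose highest mean level among the 12 other adult types falls in each type, for genes called higher in plates (brown), genes called higher in the membrane (blue) and all tested genes (grey). Mouth and esophagus take 20.1% and 16.3% of the blue genes and lantern muscle and radial canal 14.9% and 13.3% of the brown ones.

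Genes enriched in a single other tissue were used to see which of these tissues moved with the comparison. They were chosen without plates, membrane or spines, with a 4-fold margin over each remaining type. Of 64 mouth-enriched genes 40 were tested, of which 12 were higher in the membrane and 0 in plates, and their median log2 fold change was -2.58. Together the 64 genes took 0.0388% to 0.110% of counts in the membrane, 0.0108% to 0.0118% in the plates and 8.98% to 14.7% in the mouth itself. In the green, mixed, red and white spines they took 0.0189%, 0.0257%, 0.0259% and 0.0410%. Each spine lay above every plate library, and the white spine lay above the lowest membrane library. In all plate libraries 10 of the 64 were at 0 counts, and in all membrane libraries 2 were. The 12 called genes stood at 0.0196% to 58.7% of their mouth level in the membrane (median 2.70%). The membrane borders the mouth, and the part of adjoining tissue in these differences was not tested. Without the 12 genes, 227 were higher in the membrane, with a median absolute log2 fold change of 1.92. LOC121426896 and LOC121425981, high in the mouth, were not in the mouth-enriched set and remained among the 227.

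Among genes higher in plates, the gut was the highest of the 12 other types for 20 (7.84%), below its share of all tested genes (11.6%). Of these 20, 17 were nearer the membrane in all 4 spines, and 14 of the 17 had a log2 fold change of at least 5. Summed over the 17 genes, levels were 708, 516, 55.3 and 369 CPM in the plates. They were 3.76, 3.72 and 5.72 CPM in the membrane and 1.10 to 6.36 CPM in the spines. The low membrane and spine levels follow from how the 17 genes were chosen and are given as a description. Plate replicate 3 was lowest for 16 of the 17. Their plate means were 0.0253% to 3.31% of the gut means (median 0.186%), and the gut means themselves varied widely, the SD exceeding the mean for 14 genes. The part of gut RNA in this group was not tested. The set of 198 gut-enriched genes took 0.0814% to 0.162% of counts in the plates and 0.0701% to 0.115% in the membrane, ranges that overlapped, with 3 of its 134 tested genes higher in plates and 0 in the membrane (1.32% and 1.23% of all tested genes). Without the 17 genes, 238 were higher in plates, with a median log2 fold change of 1.81.

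The remaining tissue sets are read against the 1.32% and 1.23% of all tested genes called higher in plates and in the membrane. Of 1049 tested ovary-enriched genes, 24 were higher in plates and 3 in the membrane, and of 209 tube foot genes 5 were called in each direction. Of 9 lantern muscle genes 0 were higher in plates and 2 in the membrane, and all 9 had a fold change toward the membrane (median log2 -1.18). The 27 rectum genes took 0.00612% to 0.0681% of counts in the plates and 0.00304% to 0.00565% in the membrane, and 1 of 14 tested was higher in plates. The 116 testis genes also took more in the plates (0.00913% to 0.0139%) than in the membrane (0.00502% to 0.00905%), with 0 of 36 tested called. Esophagus, radial canal and radial nerve sets had 0 called genes of 2, 31 and 8 tested, and the egg set had 1 of 27, higher in the membrane. The axial gland set held 0 genes.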

How the data were processed

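The deposited values were raw read counts per gene, 1 column per library, as the authors deposited them. The submitters' processing notes name STAR, featureCounts and DESeq2, without versions. The genome build and any strand setting were not given in the sources used here. Of 25890 lines, 3 with broken fields were left out. All 25887 remaining genes matched RefSeq symbols of assembly Lvar_3.0, used for biotype, gene span and gene order only.

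Plates (n = 4) and membrane (n = 3) were fitted alone with edgeR 4.0.16 (R 4.3.3, TMM scaling, filterByExpr, glmQLFTest), and genes were called where the adjusted p (Benjamini-Hochberg) was below 0.05 and the change was 1 or more on the log2 scale. Standard errors were the absolute log2 change divided by the square root of F. The script was tested on simulated data. There, 19.7%, 74.6% and 95.3% of genes changed by 1.5, 3 and 6 on the log2 scale were called. Unchanged genes gave 5 calls. CPM used TMM factors over all 64 libraries, and 0.5 CPM was added before logs. Descriptions used Python 3.11.15.

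Genes were named if called, at 10 CPM or more in the higher tissue and without overlap: per direction the 2 with the largest fold change, the 3 with the most CPM, and the longest run of neighbours. Tissue-enriched genes needed a mean of 10 CPM, a 4-fold margin and no overlap with any library of the remaining types. The comparison, the lists and the rules were chosen with earlier results of these data known. Intervals cover counting error only. Alternatives were DESeq2 1.42.0 size factors and Wald test, no filter, a fit over all replicated groups, glmTreat, left-out replicates, a replicate block, and other pseudocounts, margins and windows. Replicate numbers were not used as pairs.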

Additional observations from a re-analysis of the deposited data

Results flagged for a closer look

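Sets of 4 plate values were examined for the 13 named genes, for the shares of counts of genes called in each direction and for the 12 tissue sets, 27 in all. In 4 of them the gap between 1 library and its nearest neighbour, as a share of the whole range, exceeded Dixon's 95% critical value, which marks about 1 in 20 groups by chance. That rate does not apply to groups made of zeros. The axial gland set held 0 genes and LOC121426896 had 0 counts in all plates, so neither could be marked. Plate replicate 2 had 0.0640 CPM of LOC121425981, from 2 counts, while the other plates had 0, so this mark rests on 1 nonzero value. Plate replicate 3 was high for LOC121410682, at 80.2 CPM against 47.0 to 52.6 CPM in the other plates. Plate replicate 4 was low for the lantern muscle set, which took 0.00278% of its counts. The same library was high for the rectum set, which took 0.0681% of its counts.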

How the results depend on the processing

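Counts of genes higher in plates and in the membrane were 255 and 239. With DESeq2's Wald test they were 1142 and 775, with 1 fit over all replicated groups 16 and 16, and with glmTreat against a fold of 2 they were 20 and 41. DESeq2 size factors (268 and 226) and no low-count filter (241 and 246) moved them little. Leaving out 1 replicate gave 15 to 384 and 33 to 339. Leaving out plate replicate 4 and membrane replicate 2 together, an alternative chosen after seeing the data, gave 139 and 189.

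With the replicate number as a block the counts were 148 and 172, of which 99 and 93 were also called without it. Deviations of libraries with the same number correlated at 0.129, -0.147 and 0.168, and those of plate replicate 4 and membrane replicate 2 at 0.300. Since not every number passed 0.1, the numbers were not used as pairs, and whether tissues share animals is not stated in the labels. Of the 13 named genes, 10 kept their call under this block, 13 under the Wald test, 9 under glmTreat and 6 in the fit over all groups (LOC121419866, LOC121408446, LOC121424524, LOC121426896, LOC121425981 and LOC121410683), and none changed sign in any alternative run.

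Against the median over libraries in place of type means, 33.1% and 28.9% of genes higher in the membrane lay above it in the red and white spines. With an 8-fold margin, 9 and 12 tissue-enriched genes were called in place of 33 and 23. The cause of these shifts was not tested. Depth limits ratios of genes with few counts in the lower tissue.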
